A study of Homo sapiens with 36 samples.

Results

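The genes examined here were the 4 cytohesins, CYTH1, CYTH2, CYTH3 and CYTH4, and 5 genes of the ADP-ribosylation factor (ARF) family, ARF1, ARF3, ARF4, ARF5 and ARF6. They were 9 of the 57500 genes in the count data. They were chosen by the measured CO2 response of CYTH2, whose mRNA was lower at 10% CO2 in each cell line with and without lipopolysaccharide (LPS), so that the other cytohesins and their ARF substrates could be set beside it. The CO2 values of CYTH2 are therefore described without a test in every comparison that holds CO2. The other 8 genes were tested there, and all 9 were tested in the comparisons of LPS and of the knockdown lines. All 9 passed the filter on low counts, and the lowest count of any of them in a library was 408, for CYTH3.

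RNA was sequenced from THP-1 cells, a human monocytic leukaemia line, in 36 libraries that fell into 12 conditions of 3 replicates. All cells carried a lentiviral short hairpin RNA (shRNA): a non-target one in the control line shNT, 1 against the orphan nuclear receptor NR4A2 in shNR4A2, and 1 against NR4A3 in shNR4A3. Each line was held for 4 h at 5% CO2 (normocapnia) or at 10% CO2 in buffered medium (hypercapnia without acidosis). In each of these states the cells were left without LPS, called basal here, or were given LPS at 2.5 µg/ml for the last 2 h. A single non-target line was the control for both knockdowns, and the sources used here do not say whether a line is 1 clone or a pool. The study's figure legends describe the replicates as individual experiments. The labels do not say which cultures they came from, so the p-values measure the spread between these libraries.

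ARFs are small GTPases that recruit coats and lipid-modifying enzymes to membranes when bound to GTP. Cytohesins are guanine nucleotide exchange factors: a Sec7 domain loads GTP onto ARFs, and a pleckstrin homology (PH) domain binds phosphoinositides and places the protein at the plasma membrane. In leukocytes cytohesins are known for their part in integrin-dependent adhesion, in migration and in endocytic traffic. ARF1 and ARF3 act mainly at the Golgi, ARF4 and ARF5 in the early secretory pathway, and ARF6 at the plasma membrane and endosomes.

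The sequence just before the start of a gene is shown for 5 of the 9 genes, to set the promoter region of CYTH2 beside those of the cytohesins CYTH1 and CYTH3, which had lower mean levels at 10% CO2, and of 2 ARFs that LPS moved in opposite directions. Each line gives the 200 bases that precede the first annotated base of the gene, read 5′ to 3′ on the strand of the gene from the hg38 assembly. Capitals mark matches to the GC box GGGCGG or its reverse complement CCGCCC, overlapping matches included, which is the binding motif of Sp1-type factors. The windows were chr17:78782298-78782497 on the minus strand for CYTH1 (ENSG00000108669), chr19:48468832-48469031 on the plus strand for CYTH2 (ENSG00000105443), chr7:6272645-6272844 on the minus strand for CYTH3 (ENSG00000008256), chr1:228082460-228082659 on the plus strand for ARF1 (ENSG00000143761) and chr14:49892892-49893091 on the plus strand for ARF6 (ENSG00000165527). None lay in an exon of its own gene, and 21 bases of the CYTH2 window lay in exons of ENSG00000268530, a gene on the opposite strand.
CYTH1: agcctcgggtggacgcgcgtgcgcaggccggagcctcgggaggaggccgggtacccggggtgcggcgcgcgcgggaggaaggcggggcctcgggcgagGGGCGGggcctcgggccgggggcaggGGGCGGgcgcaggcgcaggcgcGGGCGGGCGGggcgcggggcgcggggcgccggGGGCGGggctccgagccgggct
CYTH2: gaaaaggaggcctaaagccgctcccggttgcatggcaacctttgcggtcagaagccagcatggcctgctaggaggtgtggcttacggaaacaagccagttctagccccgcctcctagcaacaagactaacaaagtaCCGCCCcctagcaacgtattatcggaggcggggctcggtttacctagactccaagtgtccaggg
CYTH3: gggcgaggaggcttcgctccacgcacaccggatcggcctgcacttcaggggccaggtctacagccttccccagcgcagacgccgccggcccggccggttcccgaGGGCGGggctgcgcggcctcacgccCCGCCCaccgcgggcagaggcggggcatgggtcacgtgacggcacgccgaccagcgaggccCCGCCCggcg
ARF1: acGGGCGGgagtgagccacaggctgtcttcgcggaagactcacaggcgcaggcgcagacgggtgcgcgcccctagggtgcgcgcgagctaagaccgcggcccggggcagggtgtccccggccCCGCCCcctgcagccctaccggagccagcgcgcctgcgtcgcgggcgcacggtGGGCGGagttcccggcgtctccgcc
ARF6: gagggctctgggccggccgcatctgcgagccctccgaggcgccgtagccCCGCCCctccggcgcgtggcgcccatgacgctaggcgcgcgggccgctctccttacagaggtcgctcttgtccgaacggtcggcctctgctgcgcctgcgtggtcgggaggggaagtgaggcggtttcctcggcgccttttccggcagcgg

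The CYTH2 window held the least G and C of these, at 57.0%, against 87.5% for CYTH1, 78.0% for CYTH3, 77.0% for ARF1 and 73.5% for ARF6. The median of 57440 such windows, 1 per gene, was 49.5%. The GC box matched once in CYTH2 and in ARF6, 3 times in CYTH3 and in ARF1, and 5 times in CYTH1, and 22.5% of all windows, or 47.0% of those of the genes that passed the filter, held at least 1 match on either strand. The short core of ETS factors, GGAA, was searched on both strands because the study looked at ETS-1, and it matched 1 time in CYTH1 and in CYTH2, 2 times in CYTH3 and in ARF1, and 3 times in ARF6, where 85.5% of all windows and 86.3% of those of genes that passed held it. The cAMP response element TGACGTCA and the NR4A monomer element AAAGGTCA, present in 0.817% and 0.834% of all windows (1.74% and 0.632% for genes that passed), had no match in these 5 windows on either strand. A match describes the letters and is not a binding site, and the absence of a match covers these 200 bases only.

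Libraries held 16171161 to 23929138 counts, with a median of 19639071. NR4A2 mRNA was lower in shNR4A2 than in shNT in each of the 4 states (log2 fold change −1.67 to −0.91, all called). NR4A3 mRNA was lower in shNR4A3 than in shNT in each of the 4 states (−2.47 to −0.39) and was called in 3 of the 4. At 10% CO2 without LPS the NR4A3 difference in the line labelled shNR4A3 was −0.39 and was not called (edgeR adjusted p = 0.74). NR4A3 was near the floor there, with 14, 6 and 9 counts in the shNT libraries and 6, 8 and 8 in those of shNR4A3. At 5% CO2 without LPS it had 20, 21 and 17 counts in shNT and 5, 3 and 1 in shNR4A3. TNF and IL1B rose with LPS in 6 of 6 comparisons. All 10 monocyte markers listed were detected, with a summed level of 1589 to 3660 TPM (counts scaled by gene length and library total), while the summed levels of T cell, erythroid, fibroblast and epithelial markers stayed at or below 2.42 TPM and that of B cell markers lay between 3.38 and 11.6 TPM.

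TPM, the count of a gene divided by its exon length and scaled to the same total in each library, allows levels to be compared between genes. ARF1 was the highest of the 9 genes in all 36 libraries, at 672 to 995 TPM. The other ARFs followed at 100 to 266 TPM, with ARF4 second in 10 of the 12 conditions and ARF6 in the other 2. Among the cytohesins CYTH4 was the highest in every condition mean, at 22.6 to 206 TPM over libraries, while CYTH1 reached 14.5 to 51.8 TPM, CYTH2 14.8 to 35.4 TPM and CYTH3 12.2 to 26.5 TPM. Several neighbours in this order could not be separated. ARF4 and ARF6 overlapped in 5 of the 8 conditions in which they were neighbours, and CYTH1 and CYTH2 overlapped in 6 of the 9 conditions in which they were neighbours. ARF1 overlapped with its neighbour in none.

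Over the 12 conditions CYTH4 varied most in TPM, and 4 of the 5 ARFs varied least in TPM. The highest condition mean exceeded the lowest by 6.09-fold for CYTH4, 2.36-fold for CYTH1, 1.92-fold for CYTH2, 1.76-fold for ARF6 and 1.65-fold for CYTH3. For ARF1, ARF3, ARF4 and ARF5 this ratio lay between 1.22 and 1.31. In TPM, CYTH1, CYTH2, CYTH3, ARF3, ARF5 and ARF6 all had their lowest mean in shNT cells at 10% CO2 with LPS. On the scale of the tests (normalised CPM, defined below) only CYTH1 did. CYTH2, CYTH3 and ARF3 were lowest there in basal shNT cells at 10% CO2, for CYTH2 at 44.4 CPM against 49.5 CPM with LPS. On that scale condition means spanned 636 to 947 CPM for ARF1 and 130 to 200 CPM for ARF4. They spanned 23.1 to 34.5 CPM for CYTH3, so ARF1 and ARF4 were not set apart as the steadiest.

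**Figure D1:**
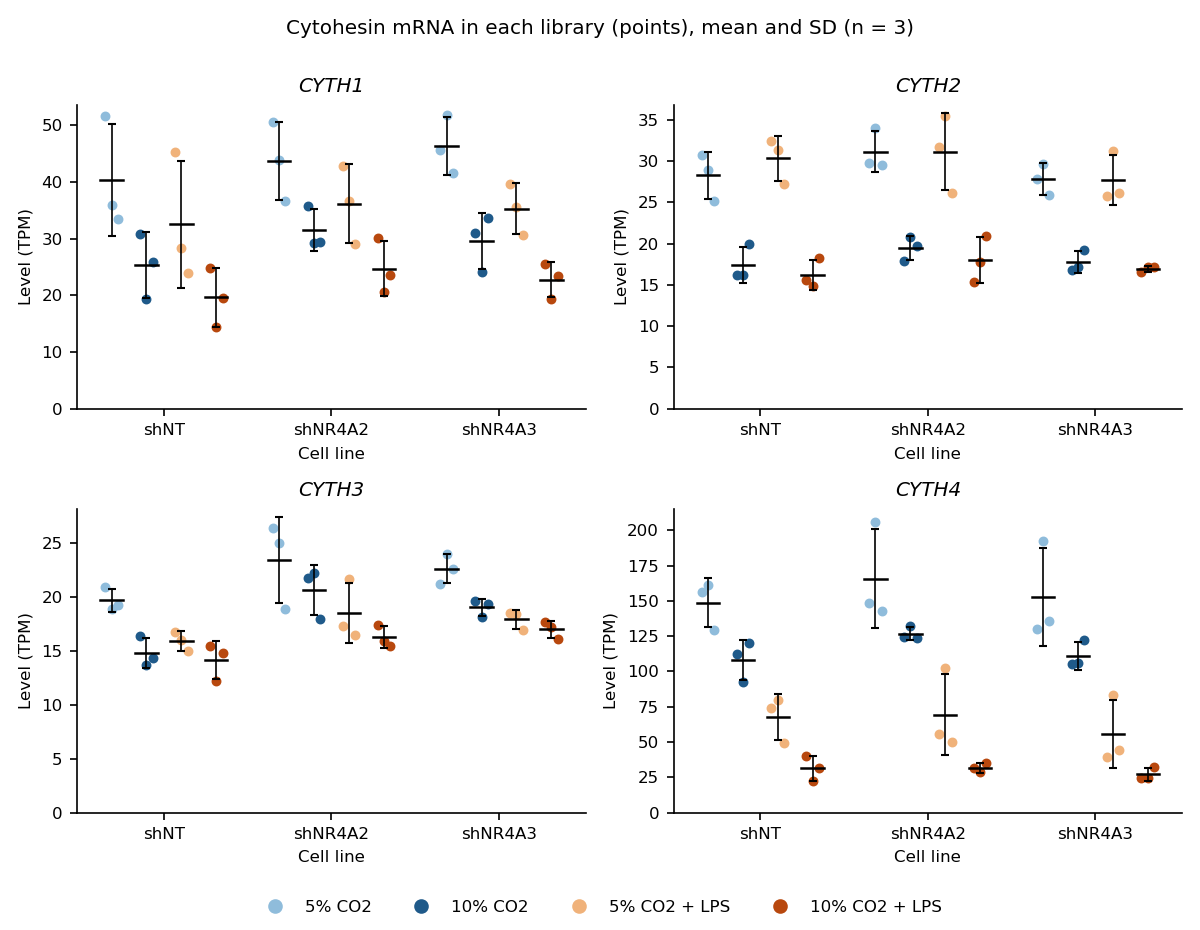
Level (TPM, linear axis from 0) of the 4 cytohesins in the 36 libraries, by cell line and coloured by CO2 and LPS. Points are single libraries, and black bars give the mean and SD of 3 replicates. CYTH2 points at 10% CO2 lie below those at 5% CO2 in all 3 lines with and without LPS, and CYTH4 falls to 27.2 to 31.8 TPM, as condition means, at 10% CO2 with LPS.

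The first question was how the cytohesins differed between 10% and 5% CO2, and CYTH2, also called ARNO, gave the pattern that chose the list. In basal shNT cells its level was 30.7, 28.9 and 25.1 TPM in the 3 libraries at 5% CO2 and 16.1, 16.2 and 19.9 TPM at 10% CO2. The 2 groups did not overlap, and the same held in each of the 6 pairs of groups, where 9.67%, 7.35% and 11.1% of all genes were lower without overlap in basal shNT, shNR4A2 and shNR4A3 cells and 14.5%, 10.6% and 13.1% with LPS. In bulk RNA, fewer cells with the mRNA and less mRNA per cell cannot be told apart. In basal shNR4A2 cells the level was 29.8, 34.0 and 29.6 TPM at 5% CO2 and 17.9, 20.7 and 19.7 TPM at 10% CO2. In basal shNR4A3 cells it was 27.8, 29.7 and 25.9 TPM against 16.8, 17.2 and 19.2 TPM. With LPS the distance between the groups was similar or larger. In shNT cells with LPS the level was 32.4, 31.3 and 27.3 TPM at 5% CO2 and 15.5, 14.8 and 18.3 TPM at 10% CO2. In shNR4A2 cells with LPS it was 31.7, 35.4 and 26.2 TPM against 15.4, 17.7 and 20.9 TPM. In shNR4A3 cells with LPS it was 25.7, 31.2 and 26.2 TPM against 16.5, 17.2 and 17.2 TPM. The fitted log2 fold change of CYTH2 was −0.61, −0.63 and −0.62 in basal shNT, shNR4A2 and shNR4A3 cells and −0.77, −0.74 and −0.65 with LPS. Mitochondrial genes took 1.54% to 4.15% of counts in libraries at 10% CO2 and 1.05% to 2.19% at 5% CO2. With these genes left out of the TPM the mean of CYTH2 in basal shNT cells was 30.8 TPM at 5% CO2 and 19.9 TPM at 10% CO2. No p is given for the values of CYTH2, since they are the reason for which the gene was listed.

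CYTH1, which binds the cytoplasmic tail of the β2 integrin, was the other cytohesin that was lower by a similar amount, but its libraries spread more widely. In basal shNT cells its level was 51.6, 36.01 and 33.4 TPM at 5% CO2 and 30.8, 19.3 and 25.9 TPM at 10% CO2. The 3 libraries at 5% CO2 lay above those at 10% CO2 in TPM, while in normalised CPM, the counts of a gene scaled to a common library size by the trimmed mean of M-values (TMM) and not divided by length, the groups overlapped. In basal shNR4A2 cells the levels were 50.6, 43.8 and 36.7 TPM against 35.8, 29.2 and 29.5 TPM, and in basal shNR4A3 cells 45.7, 51.8 and 41.6 TPM against 31.1, 24.1 and 33.7 TPM. With LPS the mean was again lower at 10% CO2 in each line. The values with LPS were 45.3, 28.3 and 24.02 TPM against 24.9, 14.5 and 19.6 TPM in shNT cells, 42.9, 36.6 and 29.0 TPM against 30.0, 20.6 and 23.5 TPM in shNR4A2 cells, and 39.7, 35.6 and 30.7 TPM against 25.5, 19.4 and 23.5 TPM in shNR4A3 cells. The shNT and shNR4A2 groups with LPS overlapped, and those of shNR4A3 did not, where 13.1% of all genes were lower without overlap.

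Over the 6 pairs of groups, edgeR's quasi-likelihood test with Benjamini-Hochberg adjustment over all genes called 1 of 48 tests of the other 8 genes, and that was CYTH1 in basal shNR4A3 cells. Of all 17720 genes tested it called 0.615% in basal shNT, 0.0113% in basal shNR4A2, 1.13% in basal shNR4A3, 8.19% in shNT with LPS, 0.198% in shNR4A2 with LPS and 2.13% in shNR4A3 with LPS. The unadjusted p was under 0.05 in 13 of the 48 tests, and DESeq2 called 6. All 13 were cytohesins, which made up 18 of the 48 tests, and so were the 6 calls of DESeq2. Of these 6, 1 lay in basal shNT cells, 2 in basal shNR4A3 cells and 1 in each line with LPS. Those that were CYTH4 are named below. The log2 fold change of CYTH1 in basal shNR4A3 cells was −0.62 (SE 0.109, edgeR adjusted p = 0.0189). The call was lost without replicate 2 of shNR4A3 at 5% CO2 or without replicate 2 at 10% CO2, with an adjusted p of up to 0.168. In the other 5 pairs the fold change of CYTH1 lay between −0.60 and −0.42, with an adjusted p of 0.063 to 0.456, and in shNR4A3 cells with LPS it passed the threshold (0.0464) without replicate 3 at 5% CO2. In basal shNR4A2 cells, where replicate numbers paired the libraries, the fit with the replicate block gave −0.41 (SE 0.0821, adjusted p = 0.0205), and there the block raised the number of genes called from 2 to 361.

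CYTH4, a cytohesin expressed mainly in leukocytes, had a lower mean at 10% CO2 in all 6 pairs. In shNT cells with LPS its level was 74.1, 79.7 and 49.1 TPM at 5% CO2 and 40.3, 22.6 and 31.7 TPM at 10% CO2. In shNR4A2 cells with LPS it was 55.7, 102 and 49.8 TPM against 31.7, 28.4 and 35.4 TPM, and in shNR4A3 cells with LPS 39.3, 83.2 and 44.5 TPM against 24.8, 24.4 and 32.5 TPM. The groups with LPS did not overlap in any of the 3 lines, where 14.5%, 10.6% and 13.1% of all genes were lower without overlap. Replicate 2 of the shNR4A2 and shNR4A3 lines at 5% CO2 stood far above the other 2, however. The log2 fold change with LPS was −0.97 (SE 0.252, adjusted p = 0.0825) in shNT, −1.05 (SE 0.235, adjusted p = 0.11) in shNR4A2 and −0.96 (SE 0.287, adjusted p = 0.163) in shNR4A3, and edgeR called none. DESeq2 called the values of shNT (adjusted p = 0.0103) and shNR4A2 (0.000155) and not that of shNR4A3 (0.0625), and edgeR called all 3 in 1 fit to all 36 libraries (0.0181, 0.0135 and 0.0243). Without LPS it was −0.38, −0.34 and −0.43 in the same order, with an edgeR adjusted p of 0.159, 0.543 and 0.0748. DESeq2 called the last of these (0.00877). In TPM the basal libraries at 5% CO2 lay above those at 10% CO2 in all 3 lines, and in normalised CPM those of shNT overlapped. Leaving out 1 library raised CYTH4 past the threshold in 4 of these 6 pairs: in basal shNR4A3 without replicate 1 at 5% CO2 (adjusted p = 0.024), in shNT with LPS without replicate 3 at 5% CO2 or replicate 1 at 10% CO2 (lowest 0.0205), in shNR4A2 with LPS without replicate 3 at 5% CO2 (0.0109) and in shNR4A3 with LPS without replicate 2 at 5% CO2 (0.0405).

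CYTH3, also called GRP1, differed little. Its fold change over the 6 pairs was −0.32, −0.13 and −0.22 in the 3 basal lines and −0.04, −0.12 and −0.03 with LPS, on the log2 scale, and none was called. Its groups in basal shNT and basal shNR4A3 cells did not overlap, where 9.67% and 11.1% of all genes were lower without overlap.

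A fit of the mean CO2 difference over the 3 lines, with 18 libraries, had more libraries behind each value. It held no term for the replicate number. The CO2 difference of CYTH4 with LPS, in log2 normalised CPM, was −1.56, −1.75 and −1.68 for replicate 2 of shNT, shNR4A2 and shNR4A3. For replicates 1 and 3 of the 3 lines it was −0.75 to −0.42. If equal numbers mark the same experiment, the lines are not independent and the p-values may be too small. This was not tested. Without LPS the fit called 15.9% of all genes (7.76% as lower), and with LPS 28.9% (14.5% as lower). Of the 16 tests of the other 8 genes it called 5, all lower at 10% CO2 and all cytohesins. CYTH1 fell by 0.54 (SE 0.105, adjusted p = 0.00197) on the log2 scale without LPS and by 0.55 (SE 0.150, adjusted p = 0.0133) with LPS. CYTH4 fell by 0.38 (SE 0.0838, adjusted p = 0.00399) without LPS and by 0.99 (SE 0.172, adjusted p = 0.000925) with LPS. CYTH2, not tested, had mean log2 differences of −0.62 and −0.72 in the same fits. CYTH3 fell by 0.23 without LPS (SE 0.0708, adjusted p = 0.0329), a call that was lost in 10 of 18 fits that left out 1 library, with an adjusted p of up to 0.0792, and its value with LPS was −0.06 (adjusted p = 0.479). The 10 libraries were spread over all 6 groups. In 1 fit to all 36 libraries CYTH4 without LPS had an adjusted p of 0.0527.

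**Figure D2:**
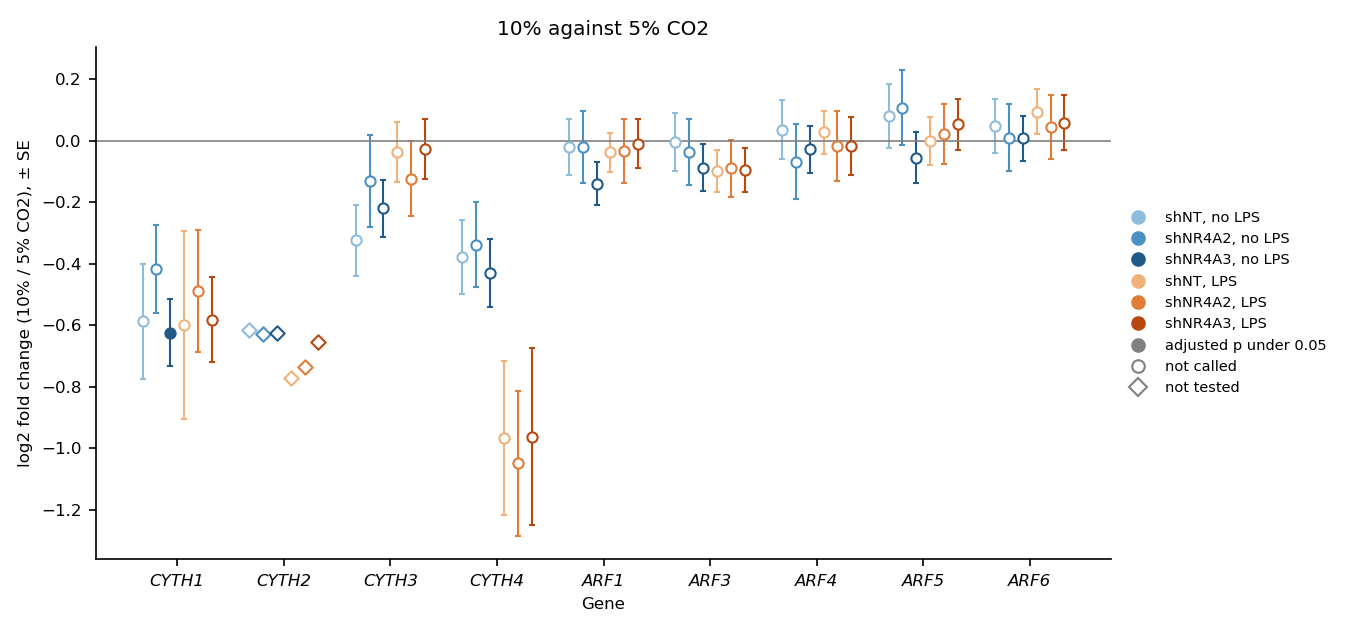
log2 fold change of each gene at 10% against 5% CO2 in each of 6 pairs of groups, coloured by line and LPS, with bars for the SE. Filled circles have an edgeR adjusted p under 0.05, open circles do not, and diamonds (CYTH2) were not tested. The cytohesins lie below 0, CYTH4 lowest with LPS, while the 5 ARFs lie between −0.14 and 0.11.

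The ARFs, the substrates of the cytohesins, showed no call under CO2. Over 30 tests the log2 fold change lay between −0.14 and 0.11, with a median of −0.01 and a lowest adjusted p of 0.332. The unadjusted p was under 0.05 in 0 of the 30 edgeR tests, and DESeq2 called 0. In basal shNT cells ARF1 was at 796, 767 and 772 TPM at 5% CO2 and at 672, 697 and 800 TPM at 10% CO2, and ARF6 was at 185, 169 and 190 TPM against 185, 168 and 175 TPM. Both genes thus overlapped between the CO2 groups in basal shNT cells. In normalised CPM, ARF1 in basal shNR4A3 cells (log2 fold change −0.14) and ARF3 with LPS in shNT (−0.10) and shNR4A3 cells (−0.10) were lower without overlap, and the other 27 pairs overlapped. ARF3 with LPS was the value nearest to a call in the mean over the 3 lines, at −0.09 (SE 0.0365, adjusted p = 0.0609). DESeq2 called it (adjusted p = 0.0208), as did scaling by library size alone (adjusted p = 0.037), and without 1 library it lay between 0.0322 and 0.161, under the threshold without replicate 1 of shNT or replicate 3 of shNR4A2 at 5% CO2 with LPS. Some exons of ARF genes overlap those of other genes, which matters as the strand setting of the counting is not given: GCC1, on the opposite strand, covers 21.9% of the exon bases of ARF5 and itself had up to 1303 counts in a library, and FSCN3 covers 15.9% with at most 12 counts.

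**Figure D3:**
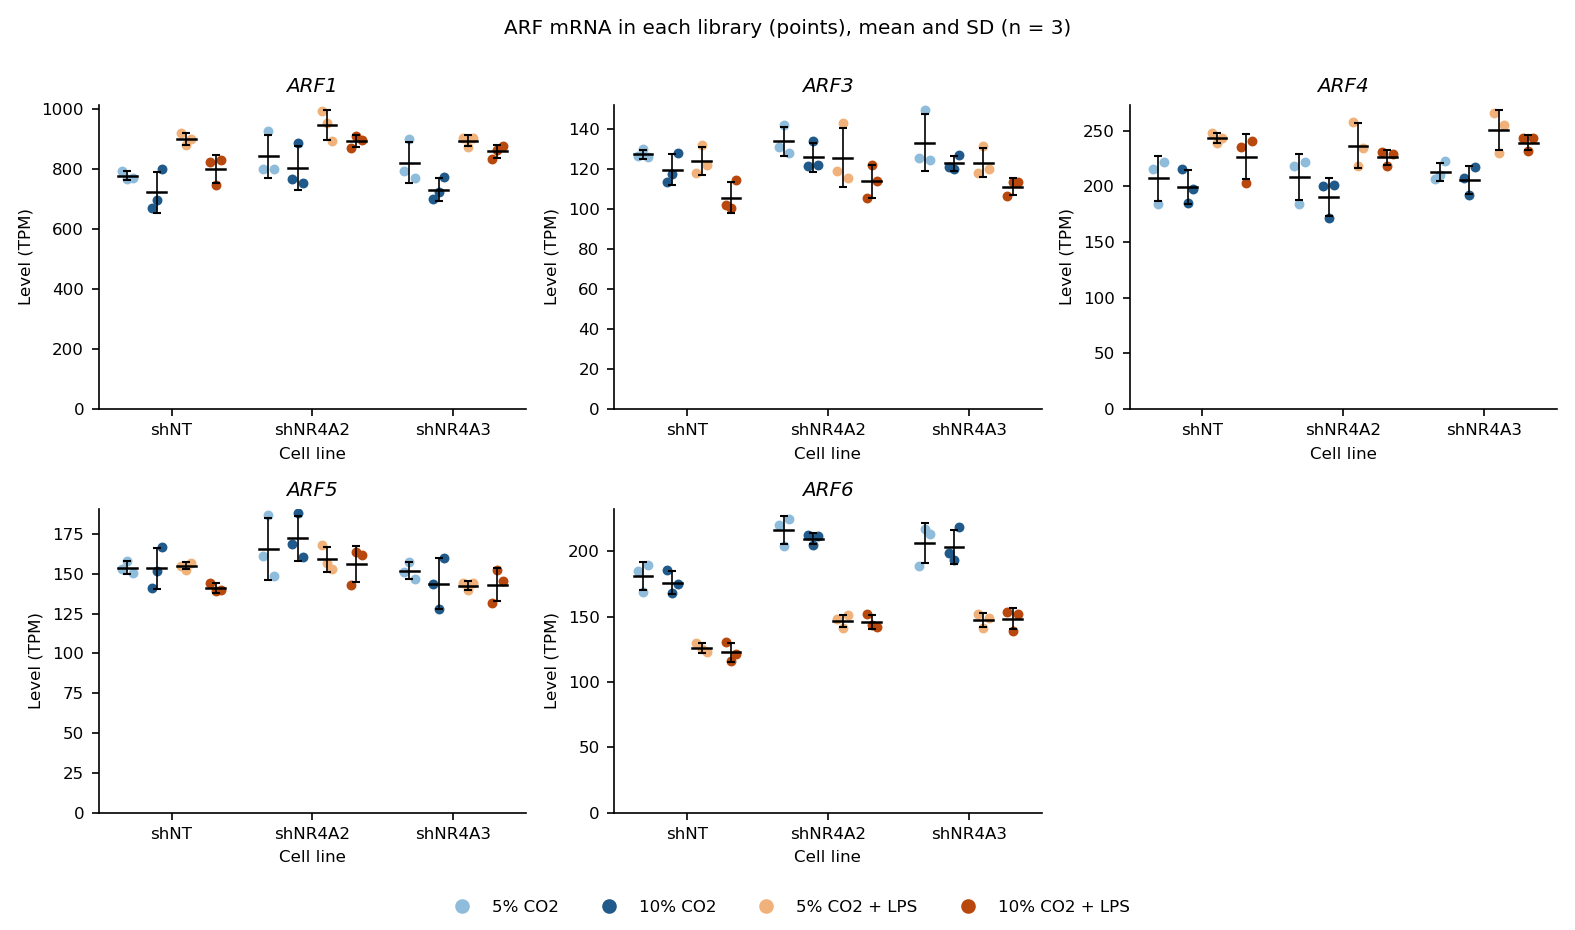
Level (TPM, linear axis from 0) of the 5 ARF genes in the 36 libraries, by cell line and coloured by CO2 and LPS, with the mean and SD of 3 replicates in black. ARF1 lies between 672 and 995 TPM, and ARF6 is lower with LPS in every line at both CO2 levels.

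Summed over the 4 genes, cytohesin mRNA was lower at 10% CO2, while the summed ARF mRNA moved little. In basal shNT cells the cytohesin sum was 237 ± 26.9 TPM (SD, n = 3) at 5% CO2 and 166 ± 20.8 TPM at 10% CO2, and with LPS it was 146 ± 27.7 TPM and 81.6 ± 16.3 TPM. The sum in shNR4A2 cells was 264 ± 41.4, 198 ± 7.0, 155 ± 37.9 and 90.9 ± 7.08 TPM in the same order, and in shNR4A3 cells 249 ± 42.0, 177 ± 15.2, 137 ± 27.6 and 84.0 ± 5.58 TPM. These sums contain CYTH2 and are given without a test. The makeup of the sum shifted with LPS more than with CO2. CYTH4 provided 60.8% to 65.3% of it in the 6 basal conditions and 32.3% to 45.9% in the 6 with LPS, as condition means. CYTH2 provided 9.81% to 11.9% in the basal conditions and 19.9% to 21.0% with LPS. The ARF sum lay between 1372 and 1616 TPM as condition means.

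**Figure D4:**
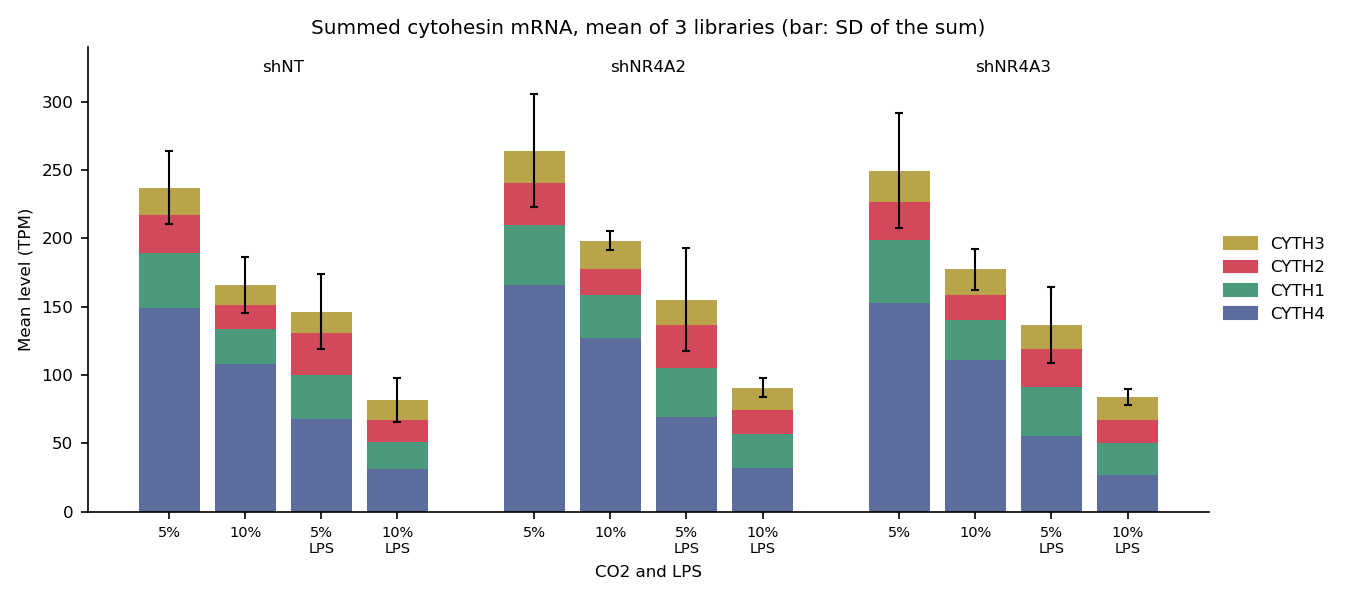
Summed mean level (TPM, linear axis from 0) of the 4 cytohesins in each condition, stacked by gene, with bars for the SD of the sum (n = 3). The sum is lowest at 10% CO2 with LPS, at 81.6 to 90.9 TPM, and the CYTH4 part shrinks most.

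The second question was how LPS changed these genes, which the choice of the list did not use. Here the scale matters. Relative to library size alone the median log2 fold change of all genes was −0.18 to −0.25 with LPS, whereas the TMM scaling used in the tests set it near 0, so a gene with the same TPM in both groups is higher in normalised CPM with LPS. In shNT cells at 5% CO2 the calls were 1993 higher and 2059 lower with TMM and 1218 higher and 4147 lower with library size alone, and the split moved in the same way in the other 5 LPS comparisons. Levels in the paragraphs on LPS are therefore normalised CPM. edgeR called 22.9% of all genes in shNT, 18.2% in shNR4A2 and 25.3% in shNR4A3 cells at 5% CO2, and 31.2%, 35.0% and 42.1% at 10% CO2. In shNR4A2 cells at 5% CO2, where replicate numbers paired the libraries, the fit with the replicate block called 4904 genes in place of 3220. Without the block, 23 of the 54 tests of the 9 genes passed, 15 as a rise and 8 as a fall. With library size alone 22 passed, 6 as a rise and 16 as a fall.

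CYTH4 fell with LPS in 6 of 6 comparisons. In shNT cells at 5% CO2 it was at 246, 261 and 193 CPM without LPS and at 135, 140 and 91.8 CPM with LPS. In shNT cells at 10% CO2 it was at 186, 155 and 195 CPM without LPS and at 80.3, 47.4 and 59.3 CPM with LPS. Neither pair overlapped, nor did that of any other line, while of all genes 19.4%, 17.8% and 21.3% were lower without overlap in shNT, shNR4A2 and shNR4A3 cells at 5% CO2 and 23.2%, 25.1% and 27.5% at 10% CO2. The other lines at 5% CO2 held 233, 328 and 216 CPM against 109, 180 and 95.2 CPM in shNR4A2 and 216, 300 and 220 CPM against 77.6, 148 and 84.7 CPM in shNR4A3. At 10% CO2 they held 211, 204 and 198 CPM against 65.8, 53.2 and 67.1 CPM in shNR4A2 and 179, 174 and 189 CPM against 49.5, 46.1 and 63.4 CPM in shNR4A3. The log2 fold change was −0.93 (SE 0.170, adjusted p = 0.00466) in shNT, −1.02 (SE 0.236, adjusted p = 0.0127) in shNR4A2 and −1.25 (SE 0.264, adjusted p = 0.0124) in shNR4A3 cells at 5% CO2. At 10% CO2 it was −1.51 (SE 0.162, adjusted p = 1.67e-05), −1.71 (SE 0.106, adjusted p = 7.21e-09) and −1.75 (SE 0.102, adjusted p = 4.29e-08). The larger size at 10% CO2 was tested as an interaction and is given further on. At 5% CO2 the call was lost in shNR4A2 without replicate 2 of the basal or replicate 1 of the LPS group (adjusted p up to 0.0689), and in shNR4A3 without replicate 1 of the basal or replicate 3 of the LPS group (up to 0.0524).

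ARF1 and ARF4 rose with LPS in 6 of 6 comparisons. ARF1 was at 667, 662 and 613 CPM without LPS and at 892, 823 and 897 CPM with LPS in shNT cells at 5% CO2, and at 592, 621 and 694 CPM against 874, 835 and 825 CPM at 10% CO2. ARF4 was at 143, 126 and 139 CPM against 190, 177 and 192 CPM in shNT cells at 5% CO2, and at 151, 131 and 136 CPM against 198, 180 and 189 CPM at 10% CO2. The groups of both genes were apart in all 6 comparisons, where the CPM of 18.3%, 16.8% and 19.4% of all genes was higher without overlap in shNT, shNR4A2 and shNR4A3 cells at 5% CO2, and of 21.3%, 22.0% and 24.5% at 10% CO2. ARF1 rose by 0.35 to 0.51 on the log2 scale and ARF4 by 0.45 to 0.52, with an edgeR adjusted p between 1.49e-05 and 0.0252. In shNR4A2 cells at 5% CO2 the call of ARF1 was lost without replicate 1 or 3 of the basal or replicate 1 of the LPS group (adjusted p up to 0.111), and that of ARF4 without replicate 2 or 3 of the basal or replicate 1 or 3 of the LPS group (up to 0.119). In shNR4A3 cells at 5% CO2 the call of ARF1 was lost without replicate 3 of the basal or of the LPS group (up to 0.0555). Scaled by library size alone, both genes stayed positive in all 6, but ARF1 was called in 2 and ARF4 in 4.

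ARF6 moved the other way. In shNT cells it was at 182, 172 and 177 CPM without LPS and at 148, 138 and 144 CPM with LPS at 5% CO2, and at 193, 176 and 178 CPM against 163, 153 and 142 CPM at 10% CO2. The LPS libraries lay below the basal ones without overlap in all 6 comparisons, where 17.8% to 27.5% of all genes were lower without overlap. The log2 fold change was −0.30 (SE 0.0779, adjusted p = 0.0106) in shNT at 5% CO2 and −0.25 (SE 0.0892, adjusted p = 0.0433) in shNT at 10% CO2, the latter lost without replicate 1 or 2 of the basal or any 1 replicate of the LPS group (adjusted p up to 0.222). In the 4 comparisons of the knockdown lines it was −0.29 to −0.18 with an adjusted p of 0.0523 to 0.0982. It passed the threshold at 10% CO2 in shNR4A2 cells without replicate 2 of the basal or replicate 1 of the LPS group (lowest 0.0241) and in shNR4A3 cells without replicate 1 of the LPS group (0.0243). With the replicate block the adjusted p was 0.0261 in shNR4A2 and 0.0131 in shNR4A3 cells at 5% CO2 and 0.000534 in shNR4A3 cells at 10% CO2, the comparisons of these 4 in which the numbers paired the libraries. The block raised the genes called from 3220 to 4904, from 4490 to 6300 and from 7456 to 9244 in the same order. Scaled by library size alone, ARF6 was called lower in all 6.

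**Figure D5:**
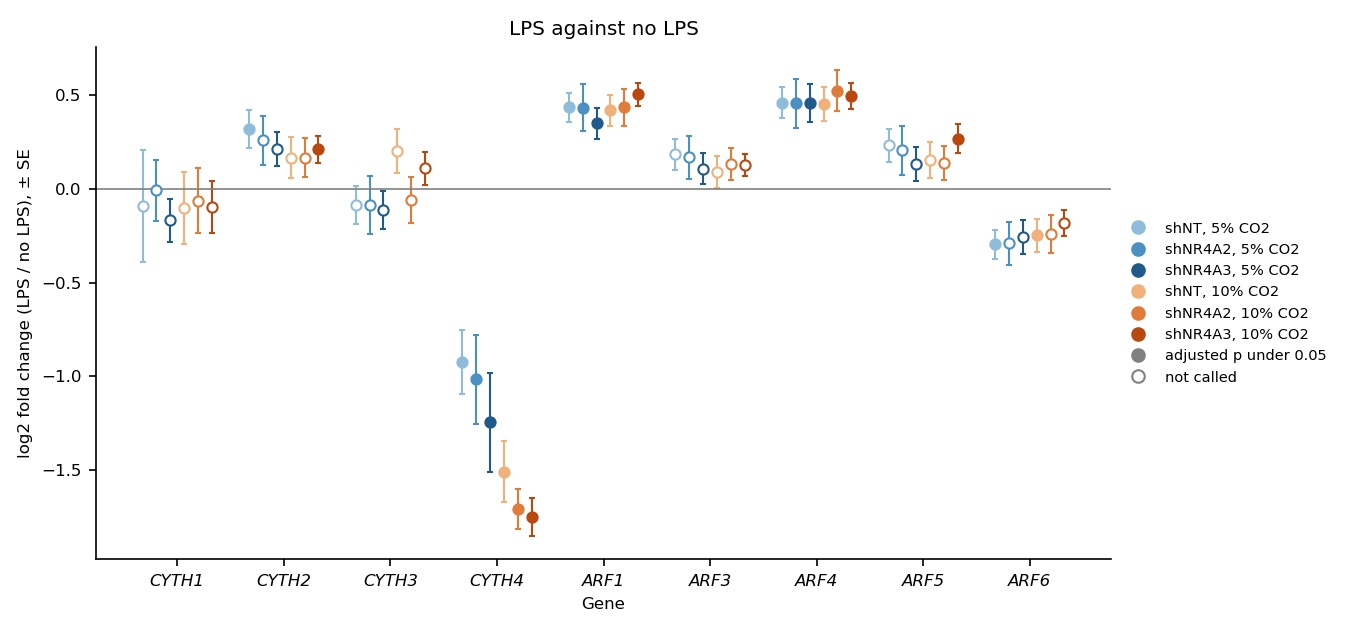
log2 fold change of each gene with against without LPS, on the TMM scale, in each line at 5% and 10% CO2, with bars for the SE. Filled circles have an edgeR adjusted p under 0.05 and open circles do not. CYTH4 lies lowest, at −1.75 to −0.93, ARF1 and ARF4 lie between 0.35 and 0.52, and ARF6 lies between −0.30 and −0.18.

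CYTH2 itself was tested under LPS and was called higher in 2 of 6 comparisons. In shNT cells at 5% CO2 it was at 74.7, 72.2 and 57.8 CPM without LPS and at 90.8, 84.8 and 78.6 CPM with LPS, a log2 fold change of 0.32 (SE 0.102, adjusted p = 0.031). In shNR4A3 cells at 10% CO2 it was at 44.1, 43.6 and 46.0 CPM without LPS and at 50.9, 50.2 and 51.8 CPM with LPS, a log2 fold change of 0.21 (SE 0.0701, adjusted p = 0.0268). Neither pair of groups overlapped, where 18.3% and 24.5% of all genes were higher without overlap. The first call was lost without replicate 2 or 3 of the basal or replicate 1 or 2 of the LPS group (adjusted p up to 0.173), and the second without any library but replicate 3 of the basal group (up to 0.0989). Scaled by library size alone the first value was 0.14 (adjusted p = 0.304), and the second changed sign to −0.04 (adjusted p = 0.677). DESeq2 did not call the second (adjusted p = 0.0663). In the other 4 comparisons the log2 fold change was 0.17 to 0.26 and was not called, and scaled by library size alone the values of shNT and shNR4A2 at 10% CO2 turned negative. For shNR4A3 cells at 5% CO2 the replicate block gave an adjusted p of 0.0373 in place of 0.111, and raised the genes called from 4490 to 6300.

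ARF5 was called higher with LPS in shNR4A3 cells at 10% CO2 at 0.27 (SE 0.0779, adjusted p = 0.013). That call was lost without replicate 2 of either group (adjusted p up to 0.0798) and with scaling by library size alone (0.02, adjusted p = 0.876). ARF3 stayed between 0.09 and 0.18 and was not called. Scaled by library size alone, ARF3 was negative in 5 of 6 comparisons and ARF5 in 4 of 6. In shNR4A3 cells at 10% CO2 the replicate block gave ARF3 an adjusted p of 0.0129 in place of 0.106, and raised the genes called from 7456 to 9244. CYTH1 lay between −0.17 and −0.01 and CYTH3 between −0.11 and 0.20, with no call in either on this scale. Scaled by library size alone, CYTH1 was called lower in shNR4A3 cells at 5% (−0.36, adjusted p = 0.0236) and 10% CO2 (−0.35, 0.0429), and CYTH3 in shNR4A3 cells at 5% (−0.31, 0.0335) and shNR4A2 cells at 10% CO2 (−0.31, 0.0396).

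The third question was whether depletion of NR4A2 or NR4A3 changed these genes at a given CO2 and LPS state. In shNR4A2 against shNT cells edgeR called 5.69% of all genes at 5% and 7.95% at 10% CO2 without LPS, and 6.21% and 18.9% with LPS. It called 1 of 36 tests of the 9 genes, CYTH3 at 10% CO2 without LPS. CYTH3 there was at 25.6, 21.7 and 22.1 CPM in shNT and at 34.8, 32.4 and 27.3 CPM in shNR4A2 cells, which do not overlap, and 12.8% of all genes were higher without overlap in this comparison. The log2 fold change was 0.44 (SE 0.130, adjusted p = 0.0413), and the call was lost without replicate 2 or 3 of shNT or replicate 1 or 2 of shNR4A2 (adjusted p up to 0.201). The unadjusted p was under 0.05 in 5 of the 36 tests, and DESeq2 called 1.

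In shNR4A3 against shNT cells edgeR called 6.19% and 6.85% of all genes without LPS at 5% and 10% CO2 and 5.41% and 14.5% with LPS. It called 1 of 36 tests of the 9 genes, ARF6 at 10% CO2 with LPS. ARF6 there was at 163, 153 and 142 CPM in shNT and at 193, 165 and 186 CPM in shNR4A3 cells. The groups lay just apart, and the log2 fold change was 0.25 (SE 0.0772, adjusted p = 0.0436). This call was lost without replicate 2 or 3 of shNT or replicate 1 or 3 of shNR4A3 (adjusted p up to 0.202) and with scaling by library size alone (0.0591). The unadjusted p was under 0.05 in 8 of the 36 tests, and DESeq2 called 1.

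ARF6 was higher in the knockdown line in all 8 comparisons with shNT, by 0.18 to 0.28 on the log2 scale, and its libraries never overlapped with those of shNT. Of all genes, 12.3% and 12.8% were higher without overlap in shNR4A2 cells at 5% and 10% CO2 without LPS and 13.1% and 17.7% with LPS, and in shNR4A3 cells 12.2% and 12%, and 12.7% and 15.6%. The 8 comparisons are not independent, since shNR4A2 and shNR4A3 share the shNT libraries. At 5% CO2 ARF6 was at 182, 172 and 177 CPM in basal shNT, at 217, 204 and 213 CPM in basal shNR4A2 and at 197, 212 and 218 CPM in basal shNR4A3 cells. With the replicate block, in comparisons where the numbers paired the libraries, its adjusted p was 0.00367 in place of 0.119 for basal shNR4A2 at 5% CO2, 0.00123 in place of 0.108 for shNR4A2 with LPS at 5% CO2, and 0.00352 in place of 0.074 for shNR4A3 with LPS at 5% CO2. In the second of these the block also moved CYTH1 from 0.702 to 0.0109 and CYTH3 from 0.193 to 0.0232. In those 3 comparisons the block raised the genes called from 1008 to 3803, from 1101 to 4369 and from 958 to 3312.

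CYTH3 was positive in the same 8 comparisons at 0.17 to 0.44, CYTH2 lay between −0.08 and 0.14, and the other genes lay between −0.24 and 0.32, none of them called. The condition means of CYTH2 over the 3 lines and both LPS states were 27.7 to 31.1 TPM at 5% CO2 and 16.2 to 19.4 TPM at 10% CO2. Leaving out 1 library raised 4 further values past the threshold: ARF6 in shNR4A2 with LPS at 5% CO2 without its replicate 2 (adjusted p = 0.0313), ARF6 in shNR4A3 with LPS at 5% CO2 without its replicate 2 (0.0175), CYTH1 in basal shNR4A3 at 5% CO2 without replicate 1 of shNT (0.0324) and CYTH3 in basal shNR4A3 at 10% CO2 without replicate 1 of shNT (0.0123).

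Differences between responses were tested as interactions, and no gene of the 9 was called in any in which it was tested. For CO2 by LPS edgeR called 0 of 32 tests, with an unadjusted p under 0.05 in 2 and 1 call by DESeq2. It called 0.0226% of all genes in shNT, 0.0% in shNR4A2 and in shNR4A3, and 1.99% in the mean over the 3 lines. For CO2 by line it called 0 of 32 tests and for LPS by line 0 of 36, with an unadjusted p under 0.05 in none and no call by DESeq2. All-gene calls were 0.0% in the 4 interactions of CO2 by line, 0.0% in those of LPS by line at 5% CO2, and 0.0451% for shNR4A2 and 0.198% for shNR4A3 at 10% CO2. CYTH4 was the member with the largest CO2 by LPS value, at −0.59 (SE 0.292) in shNT, −0.71 (SE 0.293) in shNR4A2 and −0.52 (SE 0.334) in shNR4A3 cells. The mean over the 3 lines was −0.61 (SE 0.198, edgeR adjusted p = 0.120), and DESeq2 called that value with an adjusted p of 0.0341. For CYTH2, not tested where CO2 is part of the contrast, the mean CO2 by LPS value was −0.09, and its CO2 by line values lay between −0.02 and 0.13.

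The other genes of the ARF cycle were followed as a list of 72, of which 72 passed the filter: 10 other exchange factors, 22 ARF GTPase-activating proteins (GAPs), 26 effectors and 14 proteins that recruit or bind cytohesins. Over the 6 CO2 pairs edgeR made 11 calls, 1 as higher and 10 as lower at 10% CO2. They were 1 of 72 in basal shNT, beside 0.615% of all genes, 1 in basal shNR4A3 (1.13%), 5 in shNT with LPS (8.19%) and 4 in shNR4A3 with LPS (2.13%), and 0 in shNR4A2 without (0.0113%) and with LPS (0.198%), where the unadjusted p was under 0.05 for 4 and 16 genes and DESeq2 called 0 and 5. IQSEC1 (BRAG2), an exchange factor for ARF6, had log2 fold changes of −1.15 to −0.45 and was called lower in 3 (adjusted p 0.0193 to 0.0417). GGA2, an ARF-dependent clathrin adaptor, was called lower in 2 with LPS (adjusted p 0.0208 in shNT and 0.0385 in shNR4A3). PLD2, a phospholipase D that ARFs stimulate, was called lower in shNT cells with LPS at −0.72 (adjusted p = 0.0447). PSD3, an ARF6 exchange factor, was called higher in shNR4A3 cells with LPS at 0.57 (adjusted p = 0.0249). The other 4 calls, named after their values were seen, were all lower and were those of the GAPs GIT1 (adjusted p = 0.0254), GIT2 (0.0291) and SMAP2 (0.0263) in shNT cells with LPS and of ACAP2 (0.0494) in shNR4A3 cells with LPS. In the mean over the 3 lines the list had 2 higher and 7 lower of 72 without LPS and 9 higher and 22 lower with LPS, beside 15.9% and 28.9% of all genes. The median log2 fold change of the 72 was −0.03 and −0.11 there, and that of all genes was near 0.

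With LPS the list had 5 higher and 10 lower in shNT, 5 and 5 in shNR4A2 and 6 and 14 in shNR4A3 cells at 5% CO2, and 8 and 17, 11 and 18, and 13 and 21 at 10% CO2. Of all genes, 11.2% were called higher and 11.6% lower in shNT, 8.91% and 9.26% in shNR4A2 and 11.9% and 13.4% in shNR4A3 cells at 5% CO2. At 10% CO2 the shares were 15.1% and 16.1%, 16.5% and 18.5%, and 20.6% and 21.5%. Of the 72, the share called lower at 10% CO2 was above that of all genes in each line, and the share called higher was below it. At 5% CO2 the share called lower was below that of all genes in shNR4A2 cells and above it in shNT and shNR4A3 cells. The median log2 fold change of the 72 at 10% CO2 was −0.014, 0.025 and 0.003 in shNT, shNR4A2 and shNR4A3 cells. That of all genes was −0.007, −0.007 and 0.003, so the list showed no general shift there. The list was not tested as a set. CNKSR3, a scaffold related to a known cytohesin partner, rose in 6 of 6 comparisons by a mean of 3.31 on the log2 scale. CYTIP (cytohesin-interacting protein), which binds CYTH1, was called higher in 5 of 6 (mean 0.83) and PLD1 in 5 of 6 (mean 0.58). FRMD4A, which links cytohesins to junctions, fell in 6 of 6 with a mean of −1.59. So did the exchange factor IQSEC2, with a mean of −0.80.

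In shNR4A2 against shNT cells the list had 7 higher and 0 lower at 5% CO2 and 10 higher and 1 lower at 10% CO2 without LPS, and 7 and 0, and 15 and 4 with LPS, beside 5.69%, 7.95%, 6.21% and 18.9% of all genes called. ADAP2, an ARF GAP, rose by a mean of 1.42, CYTIP by 1.11 and ITGAL, the α chain of the integrin LFA-1, by 1.10, each called in 4 of 4. COPG2, a coatomer subunit, was called lower in 2 of 4, and PLD1 and ARFIP2 in 1 each. In shNR4A3 cells the list had 6 higher and 4 lower, and 6 and 3 without LPS, and 3 and 0, and 9 and 3 with LPS, beside 6.19%, 6.85%, 5.41% and 14.5% of all genes. ITGAL rose by a mean of 1.23 and ITGB2, the β2 integrin chain whose tail CYTH1 binds, by 0.74, each in 4 of 4, and ADAP2 by 0.99 in 3 of 4. CCDC120, which binds CYTH2, and ARAP3, an ARF GAP, were called lower in 2 of 4, with means of −1.29 and −0.93, and PSD3 in 1 of 4.

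The genes whose levels moved most like CYTH2 were found by Pearson's r of log2 CPM over the 12 condition means, as a description. The 12 points share lines and treatments, so no p is given. The highest r were those of TMOD1 (0.977), MMP14 (0.976), SP2 (0.965), PACS1 (0.961) and CSNK1D (0.955). The lowest were those of DPH5 (−0.980), LINC00638 (−0.972) and MRM1 (−0.966). DPH5, for example, had a mean log2 CPM of 3.41 at 5% and 4.16 at 10% CO2 in basal shNT cells, while SP2 had 5.89 and 5.23. Among the members CYTH1 was most like CYTH2, with r = 0.826 and rank 190 of 17719 genes, followed by ARF3 (0.695), CYTH3 (0.477), ARF1 (0.417), ARF4 (0.302), ARF5 (0.197), CYTH4 (0.160) and ARF6 (−0.285).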

How the data were processed

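Poly(A)-selected RNA was sequenced as paired-end Illumina HiSeq reads. According to the study's methods, the authors used Trimmomatic v.0.36 for trimming, STAR v.2.5.2b for alignment to the GRCh38 build, and featureCounts of Subread v.1.5.2 for counting unique hits per gene. The annotation release and strand setting are not given in the sources used here. The deposited values are raw counts per gene, 1 table per library. TPM, from the exon lengths in those tables, and normalised CPM were computed here. Symbols matched 56410 of 57500 identifiers (98.1%).

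The study's methods name DESeq2. The main test here was edgeR 4.0.16 (R 4.3.3), quasi-likelihood with robust dispersion, TMM scaling and Benjamini-Hochberg adjustment over the 17720 genes kept by filterByExpr (minimum count 10, minimum total 15). Each of 34 comparisons was fitted on its own libraries, and a call is an adjusted p under 0.05. SE is the fold change's standard error. Alternatives were DESeq2 1.42.0, RLE size factors, library size alone, no filter, an adjusted p under 0.01, 1 fit to all libraries, a replicate block, and leaving out each library (324 fits). The scripts were tested on simulated data. Members and lists were chosen with earlier results of these data known. Named pathway genes are, in each family of comparisons, at most 3 per direction by number of calls, then by size of the mean change, and those likest CYTH2 are the 5 highest and 3 lowest r. A gene that this rule names is not reported here.

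Replicate numbers are shared in the labels. They were taken as pairing the libraries of a comparison where deviations from the group means correlated above 0.1 over genes for every number: CO2 in basal shNR4A2 (r 0.189 to 0.314), LPS at 5% CO2 in shNR4A2 (0.178 to 0.257) and shNR4A3 (0.111 to 0.157) and at 10% CO2 in shNR4A3 (0.143 to 0.260), shNR4A2 against shNT at 5% CO2 without (0.178 to 0.219) and with LPS (0.181 to 0.284), and shNR4A3 against shNT at 5% CO2 with LPS (0.118 to 0.233). No 2 libraries agreed within sampling noise (chi-square per degree of freedom 5.98 to 26.2).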

Additional observations from a re-analysis of the deposited data

Results flagged for a closer look

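In the pathway list, the CO2 difference of 2 of 72 genes differed with and without LPS by the interaction test over the mean of the 3 lines: PSD3 at 0.56 (SE 0.125, edgeR adjusted p = 0.0129) and GIT1 at −0.45 (SE 0.090, adjusted p = 0.0059), both on the log2 scale. The same test called 1.99% of all genes, so the count is near that of any list. DESeq2 called 5 of the 72.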

How the results depend on the processing

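Calls among the 8 genes tested over the 6 CO2 pairs, without CYTH2, numbered 1, and 0 to 2 when 1 library was left out. They numbered 3 in 1 fit to all 36 libraries, 6 with DESeq2, 6 without the filter, 0 at an adjusted p under 0.01 and 7 with the replicate block. Over all genes edgeR called 109, 2 and 200 in basal shNT, shNR4A2 and shNR4A3 cells, and 1452, 35 and 378 with LPS. DESeq2, which tested more genes, called 358, 43 and 550, and 1801, 600 and 885 in the same order. The block raised these all-gene calls too. In the mean over lines the calls of the 8 genes numbered 5 (4 to 6 with 1 library left out, and 3 at an adjusted p under 0.01). LPS calls numbered 23 (20 to 24 with 1 library left out), and 14 at an adjusted p under 0.01. Interaction calls numbered 0 (0 to 0 with 1 library left out), and 1 with DESeq2 and 1 without the filter, where CYTH4 in shNR4A2 had an adjusted p of 0.0276. Knockdown calls numbered 1 for shNR4A2 and 1 for shNR4A3 (0 to 2 each with 1 library left out). For shNR4A2 they were 4 in 1 fit to all libraries, 0 at an adjusted p under 0.01, 2 with library size alone and 7 with the replicate block. For shNR4A3 they were 2, 0, 0 and 6 in the same order, and 0 without the filter.

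Calls in the pathway list numbered 11 for the CO2 pairs (6 to 19 with 1 library left out), with 27 in 1 fit to all libraries, 24 with DESeq2, 0 at an adjusted p under 0.01, 36 without the filter and 23 with the replicate block. The mean over lines gave 40 (33 to 44), and 25 at an adjusted p under 0.01. LPS gave 133 (124 to 142), with 80 at an adjusted p under 0.01 and 198 with the replicate block. shNR4A2 gave 44 (35 to 47), with 27 and 91, and shNR4A3 gave 34 (27 to 37), with 13 and 69. Calls over all genes in the CO2 pairs also rose with DESeq2, as given above, and with the block. The cause of the changes in the pathway counts was not tested.

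With library size alone 30 of 290 values of the 9 genes turned sign, 14 of them with LPS, and 1 of the 30 had been called. The other 16 were at most 0.05 in size. With 1 library left out in turn, 113 of the 290 crossed 0, none of them called. Those that turned with library size alone included the LPS values of ARF5 in shNR4A2 at 5% CO2 (−0.0086), CYTH3 in shNT at 10% CO2 (−0.016) and CYTH2 in shNR4A3 at 10% CO2 (−0.041, the called value). The LPS by line value of CYTH4 in shNR4A2 at 10% CO2 was 0.010 without replicate 1 of shNT with LPS (−0.35 to 0.010 over all libraries left out in turn).

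Where the replicate numbers missed the cut for pairing, the replicate block moved 13 further single-comparison values past the threshold and none back: CYTH1 under CO2 in basal shNT (0.0446) and with LPS in shNT (0.0107), shNR4A2 (0.0264) and shNR4A3 (0.0282), CYTH4 under CO2 in basal shNR4A3 (0.0338), 2 LPS values (ARF5 in shNT at 5% CO2, ARF6 in shNR4A2 at 10% CO2) and 6 knockdown values of CYTH1, CYTH3 and ARF6. In each comparison with such a gain the block also raised the calls over all genes. For CO2 they went from 109 to 144 in basal shNT and from 200 to 1073 in basal shNR4A3. With LPS they went from 1452 to 1568 in shNT, 35 to 619 in shNR4A2 and 378 to 518 in shNR4A3. For shNR4A2 against shNT at 10% CO2 with LPS they went from 3344 to 6161. The cut for pairing used all genes, and a miss does not show that the numbers are unpaired. Over genes at 10 CPM or more, r was positive for every number in some of these comparisons. It was 0.347 to 0.607 in shNR4A2 against shNT with LPS at 10% CO2. In others it was negative for a number, as for CO2 in basal shNT (−0.397 to 0.457). With the block ARF3 in the mean CO2 difference with LPS had an adjusted p of 0.0271. It changed no other call of the 9 genes. With 3 libraries a group, a p that misses the threshold does not show that 2 groups are alike.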
